A study of Mus musculus with 34 samples.

Results

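Fatty acid oxidation and the target genes of PPAR-alpha were followed in mouse liver as a set of 35 named genes. A gene was measured where a probe set of the array carried its symbol and no other, and the probe set of highest mean signal stood for it. This gave 33 of the 35 genes. All 33 passed a filter that kept the 60% of probe sets with the highest mean signal, and they lie among 13099 genes tested. Acsl1, a long-chain acyl-CoA synthetase, and Cyp4a10, a fatty acid omega-hydroxylase, had no probe set of a single symbol and dropped out. The genes were chosen with earlier results of these data known.

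The 34 arrays cover 7 groups of liver RNA from C57/B6 mice, 1 array per sample. At week 48 there were 5 tumours of mice with a Pdgf-c transgene, 5 livers of transgenic mice on a diet with 0.06% peretinoin, an acyclic retinoid, 5 livers of transgenic mice on the basal diet and 4 wild-type livers. At week 20 there were 5 transgenic livers with peretinoin, 5 transgenic livers on the basal diet and 5 wild-type livers. The diets began after weaning at week 4. Pdgf-c encodes platelet-derived growth factor C, a growth factor for stellate cells, and in the published line the transgene is driven by the albumin promoter, which is active in hepatocytes. The labels name no diet for the tumours or the wild-type mice, do not tie a tumour to a liver of the same mouse, and do not say in words that each sample is a separate mouse. The p-values therefore measure the spread between these samples.

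Fatty acids enter the mitochondrion through the carnitine shuttle and are shortened there by beta-oxidation, while very long chains are shortened in peroxisomes and some chains are first hydroxylated at the omega end. In the liver PPAR-alpha, a nuclear receptor that binds fatty acids, pairs with a retinoid X receptor and switches on genes of all 3 routes during fasting. Its coactivator PGC-1alpha is encoded by Ppargc1a, and the membrane-bound transcription factor CREBH, encoded by Creb3l3, acts with it on the fasting hormone Fgf21.

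Before the results, 3 features of the arrays bear on them. To begin with, 6 arrays carried transcripts of another tissue. The mean of 9 skeletal muscle markers lay at least 3 log2 units above the median array in 5 arrays (peretinoin liver replicate 1 and transgenic and wild-type liver replicate 4 at week 48, and peretinoin liver replicates 3 and 5 at week 20), and the mean of 6 pancreatic acinar markers did so in 2 (transgenic liver replicate 4 at week 48 and replicate 5 at week 20). The mean of 4 brown adipocyte markers stood 2.19 to 3.68 log2 units above the median array in all 4 wild-type livers of week 48, the samples that tumours and transgenic livers of that age are set against. In these Cidea was 2314 to 6189, against 45.1 to 926.5 in tumours, 9.3 to 262 in transgenic livers and 58.8 to 1791 in peretinoin livers of week 48. Elovl3, which hepatocytes express too, was 17828 to 23405 in the same wild-type livers. Their Cox8b was 94.8 to 965, and this gene was highest in arrays with muscle transcripts (6702 in transgenic replicate 4 and 3743 in peretinoin replicate 1 of week 48). Ucp1, the defining gene of brown fat, was at most 135 on any array. It reached that in wild-type replicate 4 of week 48, with 4.4, 12.4 and 12.4 in replicates 1 to 3. The label of this list therefore does not name the tissue of origin here. The part of these transcripts in the results of week 48 was not tested. Then, the summed signal of 9 hepatocyte markers was 183066 to 241119 in transgenic livers, against 233630 to 286823 in wild-type livers at week 20, and at week 48 it was 194682 to 216326 in transgenic livers, against 228865 to 277986 in wild-type livers. In bulk RNA, fewer cells of a type and less RNA per cell cannot be told apart.

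Finally, the 5 transgenic livers of week 20 were not alike in these genes. In 27 of the 33 genes (81.8%) the lowest 2 of the 5 arrays were replicates 4 and 5, against 15.4% of the 13099 genes tested. Cyp4a14, the most variable of the 33, gave 20257, 19912, 20135, 1378 and 2783 in transgenic livers 1 to 5, so replicates 4 and 5 lay far under the other 3. This split was noticed in the values and is a description. Results of week 20 that involve these livers are given with both arrays and, where that matters, without them. The summed hepatocyte marker signal of replicates 4 and 5 was 183066 and 221138, and that of replicates 1, 2 and 3 was 201240, 231497 and 241119. Hsd3b5, a male-specific steroid enzyme of mouse liver, was bright in that pair, at 6824 (replicate 4) and 2441 (replicate 5), and dim in the other livers, at 28.8, 12.5 and 14. Against wild-type livers Hsd3b5 was lower in transgenic livers as a group. Its log2 change in limma was -5.87 ± 1.16 at week 20 (adjusted p = 0.000335) and -5.69 ± 1.23 at week 48 (adjusted p = 0.00101). The Y-linked genes Eif2s3y, Kdm5d and Uty were at or above 1005.5, 165.8 and 424.4 on every one of the 34 arrays, and Xist was at most 121.3 on any. Genes of the fasting and feeding state were split as well. The lipogenic genes Fasn, Acaca, Acly, Pnpla3, Elovl6 and Thrsp, 6 of 15 in the list, had replicates 4 and 5 as the highest pair, against 16.4% of all genes, and 4 others (G6pc, Tat, Igfbp1 and Cebpb) had them as the lowest pair. Fasn, the fatty acid synthase, gave 1622, 1622, 2121, 4194 and 5462 in transgenic livers 1 to 5, and Thrsp, a lipogenic factor, gave 4317, 2724, 2418, 7939 and 9047. The labels give no feeding state, and the part of Hsd3b5 and of the fasting genes in the split was not tested.

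All signals below are MAS5 intensities on a linear scale with values listed in the order of the replicate numbers. Log2 changes are differences of the mean of log2(signal + 16) with standard errors, and a gene was called at an adjusted p under 0.05 in limma (Benjamini-Hochberg, over 13099 genes, two-sided). Signals of different genes come from different probes and are not compared with each other.

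**Figure D1:**
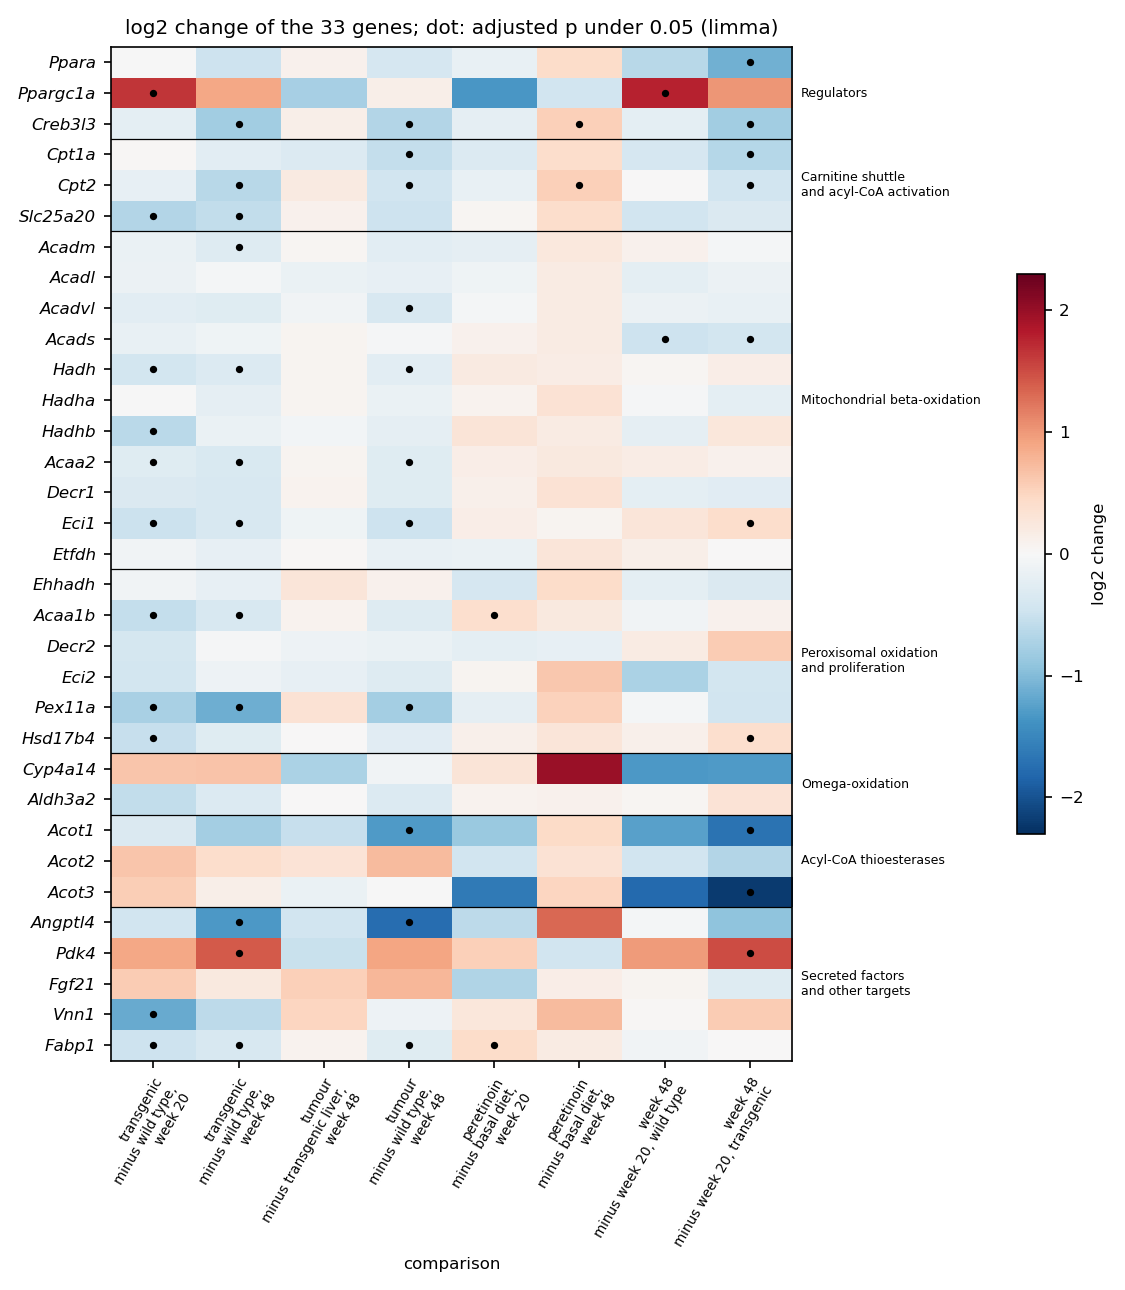
Log2 change of each of the 33 genes (rows, grouped by role) in 8 comparisons (columns), with blue for lower, red for higher and a dot where limma's adjusted p was under 0.05. The dots of the transgene and tumour columns sit mostly on blue cells, the column of tumour against transgenic liver has none, and the peretinoin column of week 48 is mostly red with 2 dots.

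At week 20, 1 of 3 carnitine shuttle genes, 4 of 11 mitochondrial and 3 of 6 peroxisomal genes fell in transgenic livers. In transgenic livers 10 of the 33 genes fell and 1 rose against wild-type livers, while 7.87% of all genes tested fell and 15.8% rose. The median change of the 33 genes was -0.24, against 0.06 over all genes. In 9 of the 10 genes that fell, no transgenic liver reached a wild-type liver, a state that 4.65% of all genes showed in that direction. The 9 measured hepatocyte markers had a median change of -0.30, with 5 that fell, and 7 of 10 stellate cell markers rose with a median of 2.50. Of 9 Kupffer cell and macrophage markers 4 fell (Clec4f, Timd4, Cd5l and Cd163) and 1 rose (Lyz2), and their mean level was 8.48 to 9.34 in transgenic livers, against 9.84 to 10.45 in wild-type livers on the log2 scale. Of 15 fasting and feeding genes Igfbp1 rose (1.64), and Thrsp (-1.55) and Ppp1r3c (-1.04) fell. The part of cell composition and of feeding state in the changes of the 33 genes was not tested.

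Among the regulators, Ppargc1a on chr5:51454249-52115853 (mouse build GRCm38.p6) was the 1 gene that rose. Its probe set gave 401, 474, 699, 297 and 219.8 in transgenic livers, against 177, 245, 58.9, 62 and 107 in wild-type livers. The lowest transgenic value lay under the highest wild-type value, so the groups overlapped. The change was 1.64 ± 0.43, adjusted p = 0.00555. Its 4 other probe sets differed in the same direction, by 0.79 to 1.43 on the log2 scale. Ppara itself on chr15:85734910-85806851 gave 6058, 6378, 7103, 5229 and 5458 in transgenic livers, against 4472, 9426, 6354, 4328 and 7002 in wild-type livers. The groups lay over each other, and the change was -0.01 ± 0.23 (adjusted p = 0.981).

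In the carnitine shuttle, Slc25a20, the carrier that moves acylcarnitines across the inner mitochondrial membrane, fell. It gave 8673, 7830.3, 6093, 4714 and 5752 in transgenic livers, against 10822, 8850.4, 10149.6, 12307 and 9655 in wild-type livers (-0.67 ± 0.18, adjusted p = 0.00549). Every transgenic value was under every wild-type value. Cpt1a, the outer membrane enzyme that controls entry of fatty acids, gave 10554, 10967, 10178, 8088 and 8016 in transgenic livers, against 8169.5, 13123, 8757, 7932 and 9123 in wild-type livers, with no separation (0.03 ± 0.17, adjusted p = 0.915).

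Of the 11 mitochondrial enzymes, 4 fell. Hadh, the dehydrogenase of medium and short 3-hydroxyacyl chains, gave 19542, 19807, 20349, 16069.8 and 18212 in transgenic livers, against 22507, 23000.2, 25927, 29607 and 25555 in wild-type livers (-0.43 ± 0.08, adjusted p = 0.000348). Hadhb, the thiolase subunit of the trifunctional protein, gave 11928, 7955, 9555, 7637 and 8991 in transgenic livers, against 14322, 15069, 13052, 14735 and 12676 in wild-type livers (-0.61 ± 0.12, adjusted p = 0.000197). Hadha, the partner subunit of the same complex, did not separate in this way (-0.01 ± 0.10, adjusted p = 0.971). The other probe sets of Hadhb differed by -0.26 (mean signal 8983) and by 0.345 in the opposite direction (mean signal 120.2), and the mean over its kept probe sets was not called (-0.175, adjusted p = 0.35). Eci1, an isomerase for unsaturated chains, gave 5001, 4985, 4928, 3541 and 3735 in transgenic livers, against 6245, 5345, 5869.5, 7222 and 6404 in wild-type livers (-0.49 ± 0.13, adjusted p = 0.00425). Acaa2, the mitochondrial thiolase, averaged 14609 ± 1125 in transgenic livers and 17717 ± 1578 in wild-type livers (SD, n = 5 each), with a change of -0.28 ± 0.08. Acadm, the medium-chain dehydrogenase, gave 13631, 14583, 14032, 10709 and 12518 in transgenic livers, against 15087, 14737, 12049, 15629 and 14949.7 in wild-type livers (-0.15 ± 0.09, adjusted p = 0.252).

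Of the 6 peroxisomal genes, 3 fell. Acaa1b, a peroxisomal thiolase, gave 27000.0, 28326, 26308, 19912 and 23838 in transgenic livers, against 33005, 36349.6, 36300.4, 40049.7 and 37044 in wild-type livers (-0.55 ± 0.11, adjusted p = 0.000327). Hsd17b4, the D-bifunctional enzyme, averaged 8902 ± 1372 in transgenic livers and 12753 ± 462 in wild-type livers (SD, n = 5 each; -0.53 ± 0.13, adjusted p = 0.00355). Neither gene's groups overlapped. Pex11a, which promotes peroxisome division, gave 3485, 3870.4, 3326, 1957 and 2048 in transgenic livers, against 4069.9, 4584, 4418, 6912 and 4107 in wild-type livers (-0.74 ± 0.24, adjusted p = 0.0238). Ehhadh, the L-bifunctional enzyme and a long-used marker of PPAR-alpha activity in mice, gave 14749, 13868, 12595, 7504 and 8985 in transgenic livers, against 15834, 12986, 8280.2, 12185 and 10878 in wild-type livers, with wide overlap (-0.08 ± 0.17, adjusted p = 0.794).

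Fabp1, the abundant fatty acid-binding protein of liver cytosol, gave 34124, 34502, 35408, 33115 and 40129 in transgenic livers, against 42849.9, 47808, 46277, 56255 and 52476 in wild-type livers (-0.47 ± 0.09, adjusted p = 0.000259). All transgenic livers lay under all wild-type livers. Vnn1, a pantetheinase, gave 5889.7, 4212, 5035, 1365 and 1428 in transgenic livers, against 7679, 4878, 5496, 10341 and 6539 in wild-type livers (-1.16 ± 0.40, adjusted p = 0.0344), and the groups overlapped. The omega-hydroxylase Cyp4a14 gave 18877, 15162, 737, 5998 and 2612 in wild-type livers, and their log2 SD of 1.91 was as wide as the 1.87 of the transgenic livers listed above. It was not called (0.64 ± 0.90, adjusted p = 0.651).

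Leaving out any 1 of the 10 arrays kept 9 of the 11 calls of week 20, while quantile normalisation ended 6 of them: Acaa2 (-0.05), Fabp1 (-0.06), Hadh (-0.16), Acaa1b (-0.225), Hsd17b4 (-0.348) and Vnn1 (-1.07). The median of the 33 genes was then -0.06, against -0.03 over all genes. Pex11a was not called without wild-type replicate 4 or transgenic replicate 4 or 5 (adjusted p between 0.0743 and 0.0886). Vnn1 was not called without wild-type replicate 1, 4 or 5 or transgenic replicate 4 or 5 (0.056 to 0.124). Without both transgenic replicates 4 and 5, which were picked for their low values, 7 genes were called, 3 higher and 4 lower, where 13.1% of all genes were called higher and 6.97% lower. The median change was then -0.04, against 0.06 over all genes. Ppargc1a (2.02), Hadh (-0.34), Hadhb (-0.53), Acaa1b (-0.42) and Fabp1 (-0.50) were still called then, Acot2 and Acot3 were called higher, and Slc25a20, Acaa2, Eci1, Hsd17b4, Pex11a and Vnn1 were not called.

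At week 48 the picture was similar in direction. In transgenic livers 11 of the 33 genes fell and 1 rose against wild-type livers, while 6.58% of all genes tested fell and 14.2% rose. The groups did not overlap in 11 genes that were lower and 1 that was higher, against 7.54% and 13.9% of all genes. The median change was -0.27 for the 33 genes and 0.04 for all genes. The hepatocyte markers had a median change of -0.33, with 6 of 9 that fell, and 8 of 10 stellate cell markers rose with a median of 1.91. Of the 9 Kupffer cell and macrophage markers Cd68 and Lyz2 rose and Cd163 fell, and of the brown adipocyte markers Cidea fell (-5.59). The part of these cells in the changes was not tested. Both ages were measured on separate arrays, and 7 genes fell at both: Hadh, Acaa1b, Acaa2, Slc25a20, Eci1, Pex11a and Fabp1. They are 70% of the genes that fell at week 20 and 63.6% of those that fell at week 48. The same shares were not taken over all genes, so the overlap does not set these genes apart.

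Creb3l3 on chr10:81084329-81098872 had the smallest p of the 33 genes. It gave 4439, 4476, 5116, 4526 and 3923 in transgenic livers, against 8810.1, 7519, 8141 and 6931 in wild-type livers, so that even the highest transgenic value lay clearly under the lowest wild-type value. The change was -0.80 ± 0.11, adjusted p = 2.97e-06. At week 20 it had averaged 7844 ± 849 in transgenic livers and 9178 ± 519 in wild-type livers (SD, n = 5 each; -0.23 ± 0.10, adjusted p = 0.105). The difference between the ages was -0.57 ± 0.15 and was not called (adjusted p = 0.102).

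Cpt2 on chr4:107903982-107923589, the inner membrane enzyme that returns acyl chains to coenzyme A, gave 2384, 3405, 2819, 3698 and 2163 in transgenic livers, against 4716, 4692, 4422 and 3969.8 in wild-type livers (-0.64 ± 0.12, adjusted p = 0.00024). The groups did not overlap. A second, dim probe set of Cpt2 differed by 0.06 here, and none of the Cpt2 calls at either age or diet stood when the 2 probe sets were averaged (adjusted p between 0.121 and 0.596). Pex11a gave 1773, 2803, 2385, 1578 and 2058 in transgenic livers, against 3834, 6333, 4873 and 3615 in wild-type livers (-1.13 ± 0.25, adjusted p = 0.0016). Of the 6 peroxisomal genes it and Acaa1b fell. Acaa2 gave 15685, 16019.7, 15066, 15671 and 15569 in transgenic livers, against 19474, 20751, 20209.9 and 18908 in wild-type livers (-0.35 ± 0.08, adjusted p = 0.00224), and Fabp1 gave 36554, 33616, 33994, 37204 and 37346 in transgenic livers, against 41125, 49953, 47422 and 46166 in wild-type livers (-0.37 ± 0.10, adjusted p = 0.00571). Hadh gave 22684, 20502, 19939, 21263 and 20051 in transgenic livers, against 26427, 28354, 26432 and 22741 in wild-type livers (-0.31 ± 0.09, adjusted p = 0.0121). None of these 3 genes overlapped between the groups. Fabp1 has one of the brightest signals on the array, at percentile 100 of all genes tested, and after quantile normalisation its change against wild type was 0.02 at week 48 and -0.06 at week 20, neither called. Acaa1b, Hadh and Acaa2 are bright too, at percentiles 99.8, 99.3 and 98.7. After quantile normalisation none of them was called at week 20. At week 48 Acaa1b (-0.087) and Hadh (-0.079) were not called then, while the Acaa2 call stood.

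Angptl4, a secreted inhibitor of lipoprotein lipase, gave 3604, 800.0, 1516, 858 and 785 in transgenic livers, against 4572, 1857, 4021 and 2776 in wild-type livers (-1.32 ± 0.46, adjusted p = 0.0402). Transgenic replicate 1 lay among the wild-type values and the other transgenic livers lay below them. Pdk4, the kinase that shuts pyruvate dehydrogenase when fat is burnt, was the 1 gene that rose: it gave 803, 1486, 737, 1447 and 1297 in transgenic livers, against 271, 703, 237 and 593 in wild-type livers (1.41 ± 0.49, adjusted p = 0.0357). The groups did not overlap, although the lowest transgenic value was close to the highest wild-type value. Slc25a20, Acaa1b, Eci1 and Acadm were lower as well, by -0.57, -0.37, -0.37 and -0.30 on the log2 scale. Acadm gave 12591, 13404, 11772, 13617 and 11489.5 in transgenic livers, against 16035, 18061, 14648 and 13287 in wild-type livers, so its groups overlapped. Ppara averaged 2851 ± 663 (n = 5) in transgenic livers and 4039 ± 1282 (n = 4) in wild-type livers and was not called (-0.47 ± 0.25, adjusted p = 0.186).

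Of the 12 calls at week 48, 5 were kept without any 1 of the 9 arrays (Creb3l3, Cpt2, Pex11a, Acaa2 and Fabp1). Median centring ended 8 of the 12: Acaa2 (-0.265, adjusted p = 0.0912), Fabp1 (-0.29), Hadh (-0.23), Acadm (-0.22), Acaa1b (-0.29), Angptl4 (-1.24), Slc25a20 (-0.49) and Eci1 (-0.29). Quantile normalisation ended 5: Fabp1, Hadh (-0.08), Acaa1b (-0.09), Acadm (-0.18) and Eci1 (-0.305). The mean of kept probe sets ended Cpt2 and Hadh (-0.20, adjusted p = 0.185). Hadh was not called without wild-type replicate 2 (adjusted p = 0.0553). Acaa1b was not called without wild-type replicate 2 or 3 or transgenic replicate 4 (up to 0.0919), and Acadm without wild-type replicate 1 or 2 or transgenic replicate 3 or 5 (up to 0.14). Angptl4 was not called without wild-type replicate 1, 3 or 4 or transgenic replicate 2, 4 or 5 (adjusted p up to 0.125), and Slc25a20 without wild-type replicate 1, 2 or 3 or transgenic replicate 1, 4 or 5 (up to 0.0904). Pdk4 was not called without wild-type replicate 1 or 3 or transgenic replicate 2, 4 or 5 (up to 0.134), and Eci1 without any wild-type array or transgenic replicate 1, 3 or 5 (up to 0.14). Without the arrays that carry another tissue's transcripts, 11 of the 12 calls stood and Angptl4 did not (-1.24, adjusted p = 0.103). None of the 33 genes was called for a difference of the transgene effect between the ages, a difference that 0.275% of all genes tested showed, and 3 of the 33 had an unadjusted p under 0.05 there, against 13.2% of all genes.

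**Figure D2:**
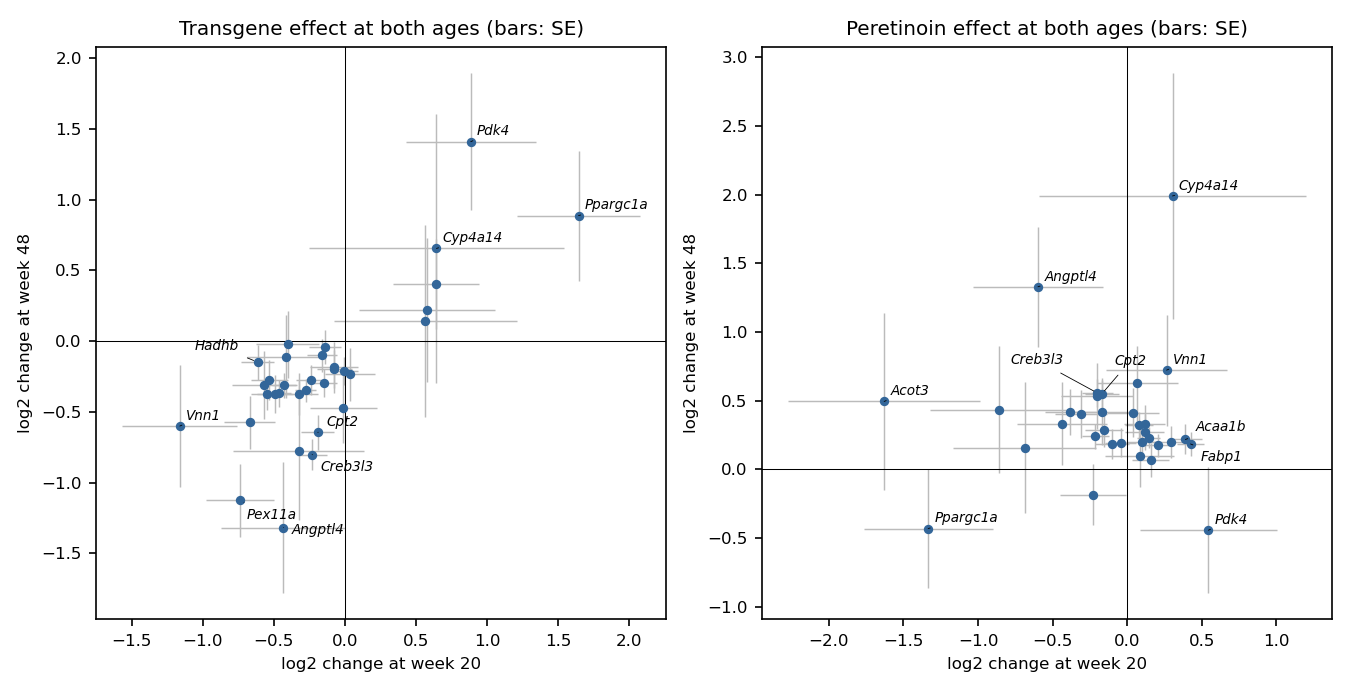
Log2 change of each of the 33 genes at week 48 (vertical axis) against week 20 (horizontal axis), with standard errors as grey bars, for transgenic minus wild type on the left and peretinoin minus basal diet on the right. On the left 26 of the 33 points lie under 0 on both axes, and Ppargc1a and Pdk4 are among 6 above 0 on both. On the right 30 of the 33 points lie above 0 at week 48 and scatter on both sides of 0 at week 20.

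The upstream sequences of Fabp1 and Creb3l3 are shown because only their promoters held the match described below. A further reason was that each was called lower in transgenic livers and higher with peretinoin, but not at the same ages. Creb3l3 had both calls at week 48 and neither at week 20. Fabp1 was lower at both ages and higher with peretinoin at week 20 only. None of these Fabp1 calls stood after quantile normalisation. The changes were then -0.062 and 0.017 against wild type at weeks 20 and 48, and 0.086 with peretinoin at week 20. PPAR-alpha with its partner binds a direct repeat of the hexamer AGGTCA spaced by 1 base, and the 13 letters AGGTCANAGGTCA were searched on both strands of the 250 bases before each start. Of 32851 RefSeq promoters of the mouse (build GRCm38.p6), 0.484% held a match with at most 1 mismatch and 3.24% one with at most 2. For 28 of the 33 genes 31 promoters were at hand, of which 1 held a match with at most 1 mismatch (Fabp1) and 2 with at most 2 (Fabp1 and an alternative start of Creb3l3). In the sequences the match is in capitals and the gene's strand runs 5′ to 3′. Positions of differences count from 1 at the 5′ end of the motif, motif base first.
Fabp1, chr6:71199629-71199878, plus strand: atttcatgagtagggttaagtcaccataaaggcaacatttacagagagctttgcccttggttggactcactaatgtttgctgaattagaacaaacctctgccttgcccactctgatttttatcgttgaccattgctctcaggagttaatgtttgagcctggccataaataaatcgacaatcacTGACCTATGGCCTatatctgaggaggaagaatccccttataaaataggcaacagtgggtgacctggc
Creb3l3, chr10:81092592-81092841, minus strand: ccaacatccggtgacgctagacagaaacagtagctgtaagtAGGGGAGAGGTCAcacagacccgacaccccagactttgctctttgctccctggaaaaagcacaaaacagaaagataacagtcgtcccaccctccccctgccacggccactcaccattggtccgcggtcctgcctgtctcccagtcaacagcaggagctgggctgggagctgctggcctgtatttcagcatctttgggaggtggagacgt
The Fabp1 match lies on the opposite strand, 67 bases before the start, reads AGGCCATAGGTCA in the direction of the motif and differs by T4C. The Creb3l3 match lies on the gene's own strand, 209 bases before that start, and differs by T4G and C5G. A match describes these letters and is not evidence of binding, and a promoter without one says nothing about the factor.

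In tumours of week 48 none of the 33 genes was called against transgenic liver, where 0 of all 13099 genes were called by limma. At an unadjusted p under 0.05 there were 0 of the 33 genes and 1075 of all genes. The median change was 0.05 for the 33 genes and 0.01 for all genes. The labels do not say whether tumours and livers came from the same mice. Tumours and transgenic livers are both set against the same 4 wild-type livers here, so their values are given side by side.

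Against wild-type livers 11 of the 33 genes fell in tumours and none rose, while 9.21% of all genes tested fell and 17.9% rose. The groups did not overlap in 6 genes that were lower and 1 that was higher, against 7.96% and 15.6% of all genes. Creb3l3 gave 4320.3, 4893, 6385, 4100.1 and 5094 in tumours (-0.67 ± 0.11, adjusted p = 2.38e-05 against the wild-type values listed above), and all 5 tumours lay under the lowest wild-type liver. Its change was -0.80 in transgenic liver. Cpt2 gave 3240.0, 3319, 3183, 3666 and 2932 in tumours (-0.44 ± 0.12, adjusted p = 0.00649). Angptl4 gave 551, 633, 1922, 836 and 1117 in tumours (-1.76 ± 0.46, adjusted p = 0.00453), with tumour 3 just above the lowest wild-type liver and the others below all 4.

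Cpt1a gave 4221, 5115, 4954, 5620.3 and 4384 in tumours, against 8913, 6650.0, 6831 and 6166 in wild-type livers, without overlap (-0.55 ± 0.18, adjusted p = 0.0262). In transgenic liver its change had been -0.23 ± 0.18 (adjusted p = 0.397). Acadvl, the very long-chain dehydrogenase, gave 7709, 8286, 9184, 6951 and 7166 in tumours, against 9911, 10673, 9843 and 9829 in wild-type livers, again without overlap (-0.36 ± 0.11, adjusted p = 0.0127). Eci1 gave 4539.5, 5793, 5763, 5334 and 5775 in tumours, against 7134, 8518, 7431 and 7117 in wild-type livers (-0.47 ± 0.13, adjusted p = 0.00784). Acaa2 gave 14873, 18472, 18439, 14852 and 15253 in tumours, and none reached the lowest wild-type liver (-0.28 ± 0.08, adjusted p = 0.00877). Acot1, a cytosolic acyl-CoA thioesterase, gave 441, 604, 266, 402 and 243 in tumours, against 1329.5, 1145, 1053 and 486 in wild-type livers (-1.31 ± 0.49, adjusted p = 0.0452). Pex11a (-0.79), Fabp1 (-0.29) and Hadh (-0.24) fell as well, with overlapping groups.

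Tumours of week 48 scattered more than transgenic livers in some genes and less in others. The log2 SD was wider in tumours for Vnn1 (0.97 against 0.44), Hsd17b4 (0.38 against 0.22) and Fgf21 (0.93 against 0.28). It was narrower in tumours for Cyp4a14 (1.03 against 1.84), Acot1 (0.52 against 0.92), Pdk4 (0.19 against 0.48) and Cpt2 (0.12 against 0.33). These genes were picked after their values were seen. Vnn1 gave 5062, 10894, 6555, 2294 and 12404 in tumours, against 5457, 5194, 5236, 2647 and 4783 in transgenic livers (0.49 ± 0.40, adjusted p = 0.848). Tumours 2, 3 and 5 lay above every transgenic liver and tumour 4 lay below every one. Hsd17b4 ranged from 8707 to 15841 in tumours and from 8889 to 13155 in transgenic livers. Fgf21 gave 183, 351, 343, 68.2 and 351 in tumours, against 109, 181, 158, 131 and 177 in transgenic livers, and was not called (0.55 ± 0.48, adjusted p = 0.863).

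Leaving out any 1 of the 9 arrays of tumour and wild-type liver kept 6 of the 11 calls (Creb3l3, Cpt2, Acadvl, Acaa2, Angptl4 and Eci1). Median centring ended 7 of the 11: Cpt2 (-0.37, adjusted p = 0.0527), Acadvl (-0.29, adjusted p = 0.131), Acaa2 (-0.21, adjusted p = 0.177), Cpt1a, Hadh, Acot1 and Fabp1. Quantile normalisation ended Hadh, Acaa2 and Fabp1, and the mean of kept probe sets ended Cpt1a (-0.57, adjusted p = 0.0604), Cpt2, Hadh and Fabp1. Cpt1a was not called without wild-type replicate 1 or tumour 1 or 5 (adjusted p up to 0.113). Pex11a was not called without wild-type replicate 2 or 3 or tumour 1 or 4 (up to 0.095), and Fabp1 without wild-type replicate 2 or 3 or tumour 3 or 4 (up to 0.0878). Hadh was not called without wild-type replicate 1, 2 or 3 or tumour 1, 3 or 4 (up to 0.151), and Acot1 without wild-type replicate 1, 2 or 3 or tumour 1, 3, 4 or 5 (up to 0.125). The median change of hepatocyte markers was -0.31 in this comparison, with 6 of 9 that fell, and 8 of 10 stellate cell markers rose with a median of 2.33. Of the 9 Kupffer cell and macrophage markers 3 rose (Lyz2, Cd68 and Adgre1) and 2 fell (Cd163 and Timd4), and the brown adipocyte markers Cidea (-3.11) and Elovl3 (-2.39) fell.

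**Figure D3:**
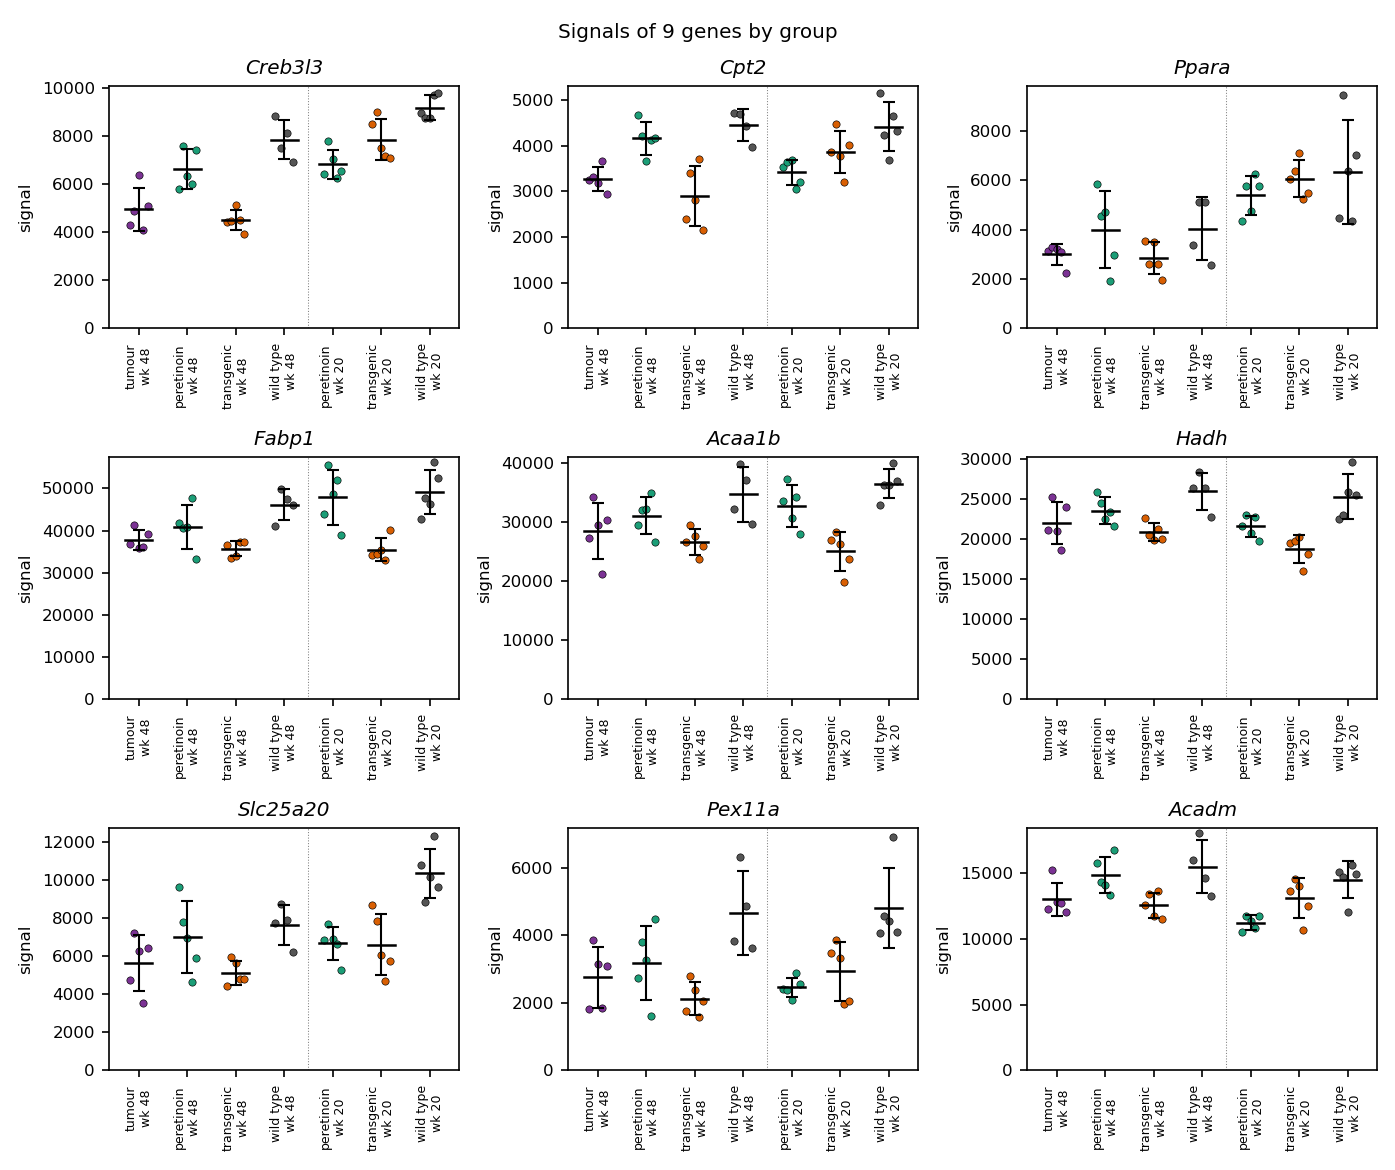
MAS5 signal per array for selected genes, with arrays as points, the group mean as a horizontal bar and the SD as error bars, from an axis that starts at 0. For Creb3l3 the 5 transgenic livers of week 48 lie under the 5 peretinoin livers and the 4 wild-type livers, with the tumours between 4100.1 and 6385.

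Peretinoin was compared with the basal diet in transgenic mice, and these comparisons use the same transgenic arrays as those above. At week 48 the 33 genes leaned upward with peretinoin. Of the 33, 30 had a change above 0 and the median was 0.29, against -0.02 over all genes, but 2 genes rose and none fell by the test. Of all genes tested 0.153% rose and 0.573% fell. The hepatocyte markers had a median change of 0.13 with none called, and the stellate cell markers -0.50 with none called. Clock genes had a median of 0.54, also with none called, and the part of these markers in the change was not tested. At an unadjusted p under 0.05 there were 17 of the 33 genes, against 14% of all genes.

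Creb3l3 gave 5783, 7571, 6353, 6012 and 7435 with peretinoin, against 4439, 4476, 5116, 4526 and 3923 on the basal diet (0.56 ± 0.10, adjusted p = 0.00528). Every peretinoin liver lay above every liver of the basal diet, as in 0.855% of all genes. Cpt2 gave 4671, 4216, 3656, 4121 and 4167 with peretinoin, against 2384, 3405, 2819, 3698 and 2163 on the basal diet, where replicate 4 lay just above the lowest peretinoin liver (0.55 ± 0.12, adjusted p = 0.0156). These were the 2 genes that rose. The second probe set of Cpt2 differed by -0.15. Without any 1 array Creb3l3 was called each time, while Cpt2 was not called without basal replicate 1 or 5 or peretinoin replicate 1 or 2 (adjusted p between 0.0513 and 0.0692). In a fit of the compared groups alone, neither gene was called.

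Other genes of the shuttle and of mitochondrial oxidation were above the basal diet by less than the test resolved. Cpt1a gave 9091, 8796, 9634, 4007 and 10152 with peretinoin, against 6943, 5465, 7285, 5207 and 5424 on the basal diet (0.40 ± 0.17, adjusted p = 0.295). Peretinoin replicate 4 was the lowest of the 10 livers and the other 4 were the highest. Acadm gave 15798, 14323, 14137, 13367 and 16787 with peretinoin, against 12591, 13404, 11772, 13617 and 11489.5 on the basal diet (0.24 ± 0.09, adjusted p = 0.215). Hadha averaged 5483 ± 375 with peretinoin and 4402 ± 610.0 on the basal diet (SD, n = 5 each; 0.32 ± 0.10, adjusted p = 0.103).

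Among the PPAR-alpha targets the nominal differences were large but so was the scatter. Cyp4a14 gave 21352, 15977, 11353, 6567 and 13371 with peretinoin, against 9930.1, 6303, 3540.3, 4218 and 350.2 on the basal diet (1.99 ± 0.90, adjusted p = 0.314). Angptl4 gave 4102, 5733, 3139.9, 1002 and 4149 with peretinoin, against 3604, 800.0, 1516, 858 and 785 on the basal diet (1.33 ± 0.44, adjusted p = 0.151). In both genes most peretinoin livers lay above most livers of the basal diet, and neither was called. Ehhadh gave 11488, 12661, 10106, 12593 and 12658 with peretinoin, against 10261, 10788, 7873, 8129.5 and 7769 on the basal diet (0.42 ± 0.17, adjusted p = 0.255). Ppara gave 5856, 4534, 4700.2, 1913 and 2974 with peretinoin, against 3523, 2626, 3513, 2614 and 1979.5 on the basal diet (0.41 ± 0.23, adjusted p = 0.451). Pdk4 gave 3894, 269.8, 519, 556 and 1101 with peretinoin, against 803, 1486, 737, 1447 and 1297 on the basal diet, and peretinoin replicate 1, an array with muscle transcripts, was far above the rest (-0.44 ± 0.46, adjusted p = 0.715).

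At week 20 the 33 genes showed no common lean with peretinoin: the median change was -0.05, against -0.02 over all genes. By the test 2 genes rose and none fell, while 1.64% of all genes tested rose and 1.24% fell. The hepatocyte markers had a median change of 0.22 with none called, and 1 of 10 stellate cell markers fell, with a median of -0.40 for the list. Fabp1 gave 43845, 55653, 48729, 52083 and 38955 with peretinoin, against 34124, 34502, 35408, 33115 and 40129 on the basal diet (0.42 ± 0.09, adjusted p = 0.0113). Only peretinoin replicate 5 lay within the range of the basal diet. Acaa1b gave 33579, 37293, 30811, 34252 and 27940.3 with peretinoin, against 27000.0, 28326, 26308, 19912 and 23838 on the basal diet (0.39 ± 0.11, adjusted p = 0.044). The Acaa1b call was lost without any 1 array except peretinoin replicate 5 (adjusted p between 0.0617 and 0.14), and that of Fabp1 without peretinoin replicate 2 (0.0565). Neither gene was called after quantile normalisation or median centring.

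Several inducible genes were lower with peretinoin at week 20 without passing the test, and others were higher. On the log2 scale Cyp4a14 averaged 13.26 with peretinoin and 12.96 on the basal diet. Pdk4 averaged 9.18 and 8.63, and Vnn1 11.83 and 11.56, in the same order, and none of these was called. Ppargc1a gave 132, 107, 149, 107 and 269 with peretinoin, against 401, 474, 699, 297 and 219.8 on the basal diet (-1.33 ± 0.43, adjusted p = 0.0764). Acot1 gave 1436, 1102, 971, 689 and 891 with peretinoin, against 4878, 2857, 2341, 612 and 949.7 on the basal diet (-0.86 ± 0.46, adjusted p = 0.306). Angptl4 gave 1242, 2597, 1008, 1513 and 1938 with peretinoin (-0.60 ± 0.44, adjusted p = 0.477). The livers on the basal diet were split in Ppargc1a, Acot1 and Angptl4, with replicates 4 and 5 within or near the range of the peretinoin values. Those 2 arrays were picked for low values in the 33 genes. Leaving them out raises the basal group in these genes and so favours lower calls, which all genes were not selected for. Without those 2 arrays 6 genes were called: Fabp1 rose by 0.45, and Ppargc1a, Ehhadh, Acot1, Acot2 and Acot3 were lower, where 2.77% of all genes were called higher and 2.06% lower. The median was then -0.29 for the 33 genes, against -0.02 over all genes.

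The peretinoin effect differed between the ages in 2 of the 33 genes, against 0.679% of all genes tested, and both were higher at week 48 (0.305% of all genes). For Creb3l3 the effect was 0.56 at week 48 and -0.20 at week 20, a difference of 0.75 ± 0.15, adjusted p = 0.0149. Cpt2 had effects of 0.55 at week 48 and -0.17 at week 20, a difference of 0.72 ± 0.16, adjusted p = 0.0328. The Creb3l3 difference was called without any 1 of the 20 arrays, and that of Cpt2 was lost without 12 of them, with adjusted p up to 0.0849 (transgenic replicates 1, 2 and 3 and peretinoin replicates 1, 2, 3 and 4 of week 20, and transgenic replicates 1, 3 and 5 and peretinoin replicates 2 and 5 of week 48). The 2 low transgenic arrays of week 20 were picked for low values in the 33 genes, so leaving them out favours a higher effect at week 48. Without them 8 genes were called, all with a higher effect at week 48, as were 1.22% of all genes (Ehhadh, Acadm, Acadl, Angptl4, Acot2 and Acot3 beside the first pair). With all arrays kept, the median difference over the 33 genes was 0.44, with 27 above 0, against -0.01 over all genes. Without the 2 low arrays it was 0.57, against -0.02 over all genes.

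Week 48 was set against week 20 within each genotype, on the same arrays as above. In transgenic livers 7 of the 33 genes fell and 3 rose, while 9.76% of all genes tested fell and 5.99% rose. In wild-type livers 1 gene fell and 1 rose, while 4.47% of all genes fell and 2.41% rose. Clock genes moved in the same comparisons: 11 of 13 were called in transgenic livers and 7 of 13 in wild-type livers, among them Dbp, a clock output factor, by -3.17 in transgenic and -3.79 in wild-type livers. None of the 13 was called between genotypes or diets of one age. Sampling time of day is not given in the sources used here, and its part in the age comparisons was not tested. No hepatocyte marker was called by age in either genotype. Of 15 fasting and feeding genes 4 rose (Fasn, Pnpla3, Ppp1r3c and Acly) and 1 fell (Cebpb) in transgenic livers, and none was called in wild-type livers. Cidea rose in wild-type livers (5.73).

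The regulators Ppara and Creb3l3 fell between the ages in transgenic livers. Ppara gave 3523, 2626, 3513, 2614 and 1979.5 in transgenic livers at week 48, against 6058, 6378, 7103, 5229 and 5458 at week 20 (-1.10 ± 0.23, adjusted p = 0.00191), and no liver of week 48 reached one of week 20. In wild-type livers it gave 3390.4, 5098, 5118 and 2549 at week 48, against 4472, 9426, 6354, 4328 and 7002 at week 20 (-0.64 ± 0.25, adjusted p = 0.121). Creb3l3 fell in transgenic livers without overlap (-0.80 ± 0.10, adjusted p = 1.22e-05), against -0.23 ± 0.11 in wild-type livers (adjusted p = 0.226). The difference of these age effects equals the difference of the transgene effects given above for Creb3l3, which was not called, and for Ppara it was -0.46 ± 0.34, adjusted p = 0.604. Ppargc1a rose in wild-type livers (1.76 ± 0.46, adjusted p = 0.018), but its 4 other probe sets differed by -0.28 to 0.06, and the mean of its kept probe sets differed by 0.21 (adjusted p = 0.78). The call was also lost without wild-type replicate 3 or 4 of week 48 (0.0556 to 0.091), without the arrays that carry another tissue's transcripts (0.0505) and in a fit of the compared groups alone (0.0724).

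Cpt1a fell in transgenic livers (-0.66 ± 0.17, adjusted p = 0.00966), with the 5 livers of week 48 all under the 5 of week 20. Its other 2 probe sets differed by -0.30 and -0.12, and the mean of the kept probe sets was not called (-0.36, adjusted p = 0.278). Cpt2 fell too (-0.44 ± 0.12, adjusted p = 0.0094), but this call was lost under median centring, when probe sets were averaged and when both groups were fitted alone (adjusted p up to 0.171). Acads, the short-chain dehydrogenase, gave 2487, 2305, 2440.1 and 2237 in wild-type livers at week 48, against 3095, 3407, 3599.9, 3521 and 2954 at week 20 (-0.48 ± 0.11, adjusted p = 0.00991). It fell in transgenic livers as well (-0.42 ± 0.11, adjusted p = 0.00754), and neither genotype overlapped between the ages. Of the 3 thioesterases Acot1 and Acot3 fell, and Acot2 was not called (-0.68 ± 0.30, adjusted p = 0.124). Acot1 gave 786, 918, 641, 585 and 171 in transgenic livers at week 48, against 4878, 2857, 2341, 612 and 949.7 at week 20 (-1.70 ± 0.46, adjusted p = 0.011). Acot3, a peroxisomal thioesterase, gave 288, 262, 232, 175 and 94.7 at week 48, against 4526, 2863, 1453, 195 and 214 at week 20 (-2.21 ± 0.64, adjusted p = 0.0174). In both the high values were those of transgenic replicates 1, 2 and 3 of week 20. Acot1 was not called without transgenic replicate 1 of week 20 or 5 of week 48, and Acot3 without replicate 1 or 2 of week 20 or 5 of week 48 (adjusted p up to 0.0784).

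Pdk4 rose in transgenic livers (1.50 ± 0.46, adjusted p = 0.0231) without overlap between the ages, and so did Eci1 (0.40 ± 0.13) and Hsd17b4 (0.38 ± 0.13) with overlap. The pair of low transgenic arrays of week 20 was picked for low values in the 33 genes, so leaving it out favours falls. Without that pair 16 genes fell and none rose, against 9.21% and 6.12% of all genes. Pdk4, Eci1 and Hsd17b4 were not called there. Single arrays also ended these calls: transgenic replicates 3 and 4 of week 20 and 2, 4 and 5 of week 48 for Pdk4 (adjusted p up to 0.0589), replicates 4 and 5 of week 20 and 2, 3 and 4 of week 48 for Eci1 (up to 0.085), and all but 3 of the 10 arrays for Hsd17b4 (up to 0.131).

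The genes differed in how far the samples of one group spread. On the log2 scale the within-group SD was 1.54 for Cyp4a14, 1.10 for Acot3, 0.81 for Fgf21, 0.79 for Acot1, 0.78 for Pdk4 and 0.74 to 0.75 for Angptl4 and Ppargc1a. By mean signal these genes lie at percentiles 95.6, 54.3, 27.2, 72.9, 60.1, 84.6 and 49.1 of all genes tested, in that order. At the other end the SD was 0.11 for Acaa2, 0.13 for Hadh, 0.14 for Acadm and Fabp1 and 0.16 for Creb3l3. These SDs lie at percentile 10.2 of all genes tested or lower, while the mean signals lie at percentile 94.2 or higher. PPAR-alpha or fasting can induce several of the genes with wide spread. The part of induction and of signal level in the spread was not tested.

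The scatter of Cyp4a14 was seen in wild-type liver too. At week 48 it gave 3619, 6337, 3385 and 206 in wild-type livers and 2604, 1757, 2471, 3909.5 and 582 in tumours. Wild-type replicate 3 at week 20 and replicate 4 at week 48 and transgenic replicate 5 at week 48 were lowest in their groups. The same 3 livers were also lowest in their groups in Acot1, which gave 3818, 2653, 1044, 4379 and 1282 in wild-type livers at week 20. Wild-type replicate 4 of week 48 carried muscle transcripts and the other 2 did not. Transgenic replicate 4 and peretinoin replicate 4 at week 20 and tumour 5 were likewise lowest in their groups in both genes. In peretinoin livers of week 48 the lowest was replicate 4 in Cyp4a14 (6567) and replicate 3 in Acot1 (480). Fgf21 gave 139, 91.8, 217, 85.7 and 509.7 with peretinoin and 166, 106, 88.9 and 154 in wild-type livers at week 48, and 106, 115, 22.4, 139.5 and 299.9 with peretinoin, 209, 395, 203, 105 and 118 in transgenic and 247, 225, 65.9, 90.6 and 63.5 in wild-type livers at week 20. It was called in none of the 10 comparisons.

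**Figure D4:**
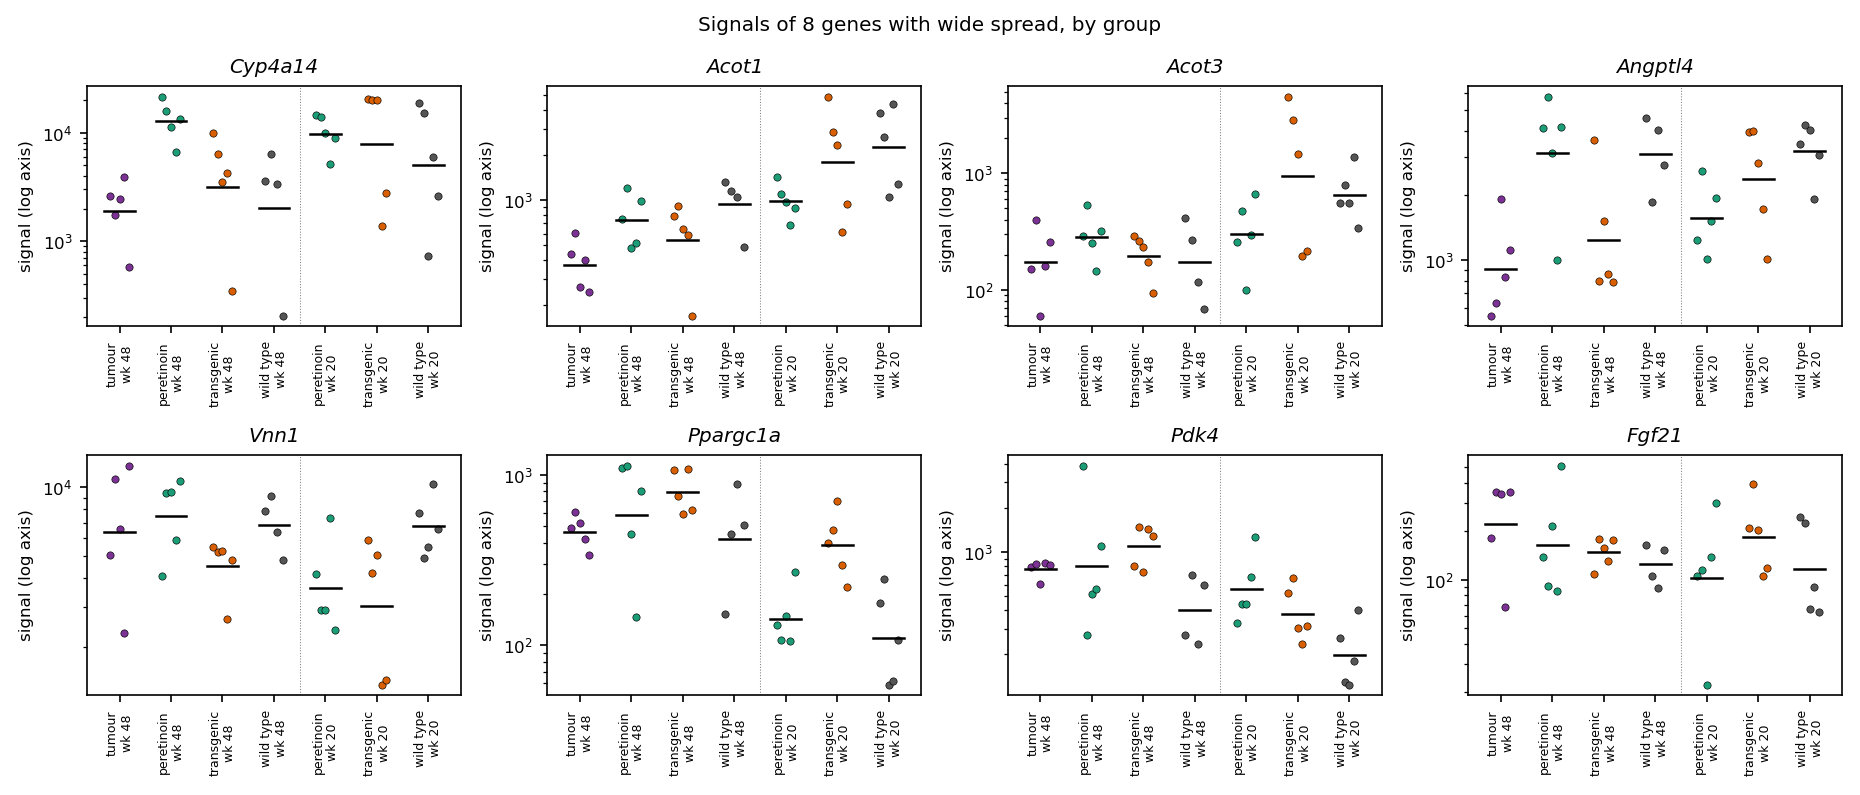
MAS5 signal per array on a log axis for genes that varied most within groups, with points for arrays and bars for the geometric mean. In the transgenic group of week 20 replicates 4 and 5 lie apart from the other 3 for Cyp4a14 (1378 and 2783 against 19912 to 20257) and Acot3 (195 and 214 against 1453 to 4526).

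The share of all genes tested that were called in none of the 10 comparisons was not taken, so the next count has no reference. Of the 33 genes 11 were called in none of the 10. Beside Ehhadh, Hadha, Cyp4a14 and Fgf21 these were Acadl, the long-chain dehydrogenase, Etfdh, Decr1, a reductase for unsaturated chains, its peroxisomal relative Decr2, Eci2, a peroxisomal isomerase, Aldh3a2, a fatty aldehyde dehydrogenase, and Acot2, a mitochondrial thioesterase. Acadl averaged 8226 ± 1261 (n = 5) in transgenic livers and 8392 ± 501 (n = 4) in wild-type livers at week 48 (-0.04 ± 0.12). Decr1 averaged 6760.5 ± 339.6 in transgenic livers and 8803 ± 1065 in wild-type livers at that age (-0.37 ± 0.15), and these groups did not overlap although limma's adjusted p was 0.0661.

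With peretinoin at week 48 Etfdh averaged 8148 ± 1245, against 6695 ± 1086 on the basal diet (0.29 ± 0.13). Eci2 averaged 7022 ± 2691 with peretinoin and 4326 ± 1088 on the basal diet (0.63 ± 0.27), and Aldh3a2 averaged 5743 ± 1345 with peretinoin and 5364 ± 1317 on the basal diet (0.10 ± 0.23). None passed the test. Acot2 differed the other way from most of the set against wild type: it averaged 682 ± 244 in tumours (n = 5) and 393 ± 70.2 in wild-type livers (n = 4), without overlap (0.73 ± 0.32, adjusted p = 0.0891). Decr2 averaged 3609 ± 961 in transgenic livers and 4646 ± 457 in wild-type livers at week 20 (-0.40 ± 0.22, adjusted p = 0.193).

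Other genes of the same pathways, from lists written for this purpose, were read beside the 33. In transgenic against wild-type liver 7.87% of all genes tested fell and 15.8% rose at week 20, and 6.58% fell and 14.2% rose at week 48. Of 25 other beta-oxidation genes 10 fell and 1 rose at week 20, and 7 fell and 2 rose at week 48. Among those that fell at both ages were Hsd17b10, a mitochondrial short-chain dehydrogenase (-0.43 and -0.54 at weeks 20 and 48), and Acsm1, a medium-chain acyl-CoA synthetase (-0.62 and -0.42). The acyl-CoA synthetases Acsl4 (0.35 and 0.48) and, at week 48, Acsl3 (1.29 ± 0.24, adjusted p = 0.000158) rose instead. Of 14 genes of peroxisome assembly and transport 8 fell and 1 rose at week 20 and 4 fell and 1 rose at week 48. Catalase, Cat, fell at both ages (-0.48 and -0.35), while the peroxisomal transporter Abcd2 rose (1.55 and 2.34).

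Of 25 other PPAR-alpha targets 5 fell and 2 rose at week 20 and 7 fell and 3 rose at week 48. Over all genes 7.87% fell and 15.8% rose at week 20, and 6.58% fell and 14.2% rose at week 48. Lpl, which encodes lipoprotein lipase, rose (1.85 and 2.78), as did Fabp4, the fatty acid-binding protein of adipocytes and macrophages (1.46 and 1.48). The lipase Mgll (-1.06 and -1.01) and the lipid droplet protein Plin2 (-0.55 and -0.55) fell at both ages. Of 4 ketone body genes Oxct1, which lets tissues use ketone bodies and is scarce in hepatocytes, rose at both ages (1.98 ± 0.45, adjusted p = 0.00166 at week 20), and Acat1, a thiolase of ketone body metabolism, fell at both (-0.39 and -0.33). Among 14 other thioesterase and omega-oxidation genes the hydroxylases Cyp4v3 (-0.70 and -0.95) and Cyp4a12a (-1.35 and -0.94) fell, and the mitochondrial thioesterase Acot9 rose (1.23 and 1.73).

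In tumours against wild-type liver 9.21% of all genes tested fell and 17.9% rose. Of the 25 other beta-oxidation genes 9 fell and 2 rose, with Acad11, an acyl-CoA dehydrogenase, at -0.79 ± 0.13, adjusted p = 3.88e-05 and Acsl4 at 0.79 ± 0.14, adjusted p = 7.58e-05. Among other targets 5 fell and 5 rose, including Lpl (3.09) and the bile acid enzyme Cyp8b1 (-2.84). Rxra, the main retinoid X receptor of hepatocytes and the partner of PPAR-alpha, was lower in tumours (-0.54 ± 0.19, adjusted p = 0.03) and had a log2 change of -0.36 ± 0.19 in transgenic livers of week 48 (limma, adjusted p = 0.179). With peretinoin at week 20, 1.64% of all genes tested rose and 1.24% fell. Of 25 other beta-oxidation genes 1 rose (the acyl-CoA synthetase Acsl5, 0.56 ± 0.14, adjusted p = 0.0259). Of the other targets 2 rose and 1 fell (the desaturases Scd1, 0.67, and Fads1, 0.51, and the ganglioside synthase St3gal5, -1.25). At week 48 none of the genes in these lists was called with peretinoin, where limma called 0.725% of all genes and 2 of the 33.

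Second probe sets were looked at for the calls. Of the 50 calls between pairs of groups, 28 were of genes with a further probe set of mean signal at least 100. In 23 of the 28 every such probe set differed in the same direction, and in 5 at least 1 differed in the opposite one (Cpt2 in 3 comparisons at week 48, Hadhb at week 20 and Ppargc1a by age in wild-type livers). The probe sets of Hadh, Hadhb, Acaa2, Angptl4, Acot3 and Hsd17b4 are of types that may also bind related transcripts, so signals of those 6 genes could include another transcript.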

How the data were processed

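Liver and tumour RNA of 34 samples was labelled as biotinylated cRNA and hybridised to 1-colour Affymetrix mouse arrays, per the labels' protocols. The authors deposited MAS5 signals, linear intensity values with 1 value per probe set, per the submitters' processing notes; the array trimmed means lie between 500.003 and 500.004, so the arrays had been scaled to one level. From 45101 probe sets the 64 controls were dropped. Values were taken as log2(signal + 16), the 60% of probe sets with the highest mean signal were kept, and the probe set of a single symbol with the highest mean stood for its gene, which left 13099 genes. Of the probe sets 34945 had 1 symbol, 932 several and 9160 none.

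One limma fit (3.58.1, R 4.3.3, lmFit and eBayes with a trend) held the 7 groups, and the 10 comparisons were read from it as contrasts at a Benjamini-Hochberg adjusted p under 0.05. The fit was tested on simulated data. The number of arrays, 4 or 5 a group, limits the precision, and no batch is named in the labels. Gene positions and promoters come from RefSeq (GRCm38.p6), where all 33 genes matched. Alternatives were other filters, pseudocounts, scalings, probe set rules, fits, left-out arrays and a replicate block. Members, lists, tests and the values named were chosen with earlier results of these data known. By rule, per-sample values were given for 14 panel genes, of which 13 were measured, and for up to 6 called members of smallest p per comparison, and from each other list up to 4 called genes of smallest p; further genes were chosen after their values were seen.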

Additional observations from a re-analysis of the deposited data

Results flagged for a closer look

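A single sample stood apart from its group in 16 of the 231 sets of 1 gene in 1 group that were checked with Dixon's test at its 95% critical value (6.93%), and chance gives about 1 in 20. Among tumours these were Ppara in replicate 5 at 2236.5, Acadm in replicate 2 at 15227, Etfdh, which passes electrons to ubiquinone, in replicate 2 at 7409, and Pdk4 in replicate 3 at 608.6. In peretinoin livers of week 48 they were Cpt1a in replicate 4 at 4007.4 and the reductase Decr1 in replicate 5 at 6003.1. Transgenic livers of week 48 had Acot1 in replicate 5 at 170.5 and Vnn1 in replicate 4 at 2646.9, an array with muscle and acinar transcripts. Wild-type livers of week 48 had Acadvl at 10673 and Decr2 at 7089.6, both in replicate 2.

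In peretinoin livers of week 20 Hadhb in replicate 4 was at 8891.1 and Eci1 in replicate 5 at 3855.6. Wild-type livers of week 20 had Cpt1a in replicate 2 at 13123, Acadm in replicate 3 at 12049, Decr1 in replicate 4 at 13392 and Pex11a in replicate 4 at 6911.5.

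The peretinoin effect differed between week 48 and week 20 by 0.719 on the log2 scale in Cpt2 and by 0.755 in Creb3l3, each past limma's adjusted p of 0.05.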

How the results depend on the processing

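Of the 52 calls, 10 stood under every alternative that was run: Creb3l3 in 4 comparisons (both against wild type at week 48, the age comparison in transgenic mice and the difference of peretinoin effects), Ppargc1a at week 20 and Pex11a at week 48 against wild type, Angptl4 and Eci1 in tumours against wild type, Ppara by age in transgenic mice and Acads by age in wild-type mice. Over all calls and alternatives 959 of 1164 values kept direction and call, 203 kept the direction only and 2 changed sign, both of Fabp1 under quantile normalisation (0.017 in transgenic livers and 0.056 in tumours of week 48, against wild type). Quantile normalisation left 5 called genes (1 higher, 4 lower) for the transgene at week 20, 7 (1 higher, 6 lower) at week 48, 0 for peretinoin at week 20 and 1 for the difference of transgene effects (Creb3l3). Median centring left 4 (1 higher, 3 lower) for the transgene at week 48, 5 (1 higher, 4 lower) in tumours against wild type and 0 for peretinoin at week 20, and it split the 10 of the transgenic age comparison into 5 higher and 5 lower. Centring moved the median of all genes by over 0.1, to -0.07 at week 20, where the 33 genes had -0.37, to 0.19 for the difference of transgene effects and to 0.08 in the transgenic age comparison. Under quantile normalisation the medians at week 20 were -0.06 for the 33 genes and -0.03 for all genes.

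For peretinoin at week 20 the count was 1 without the filter, 0 with the mean of kept probe sets, 1 with only the groups compared and 4 with array weights; at week 48 it was 1 with the mean of probe sets and 0 with only the groups compared. The difference of peretinoin effects gave 1 with the mean of probe sets, 1 with only the groups compared and 6 with array weights. The wild-type age comparison gave 1 with the mean of probe sets, 1 with only the groups compared and 1 without the arrays that carry another tissue's transcripts. Without both low transgenic arrays of week 20, an alternative chosen after seeing the data, the counts were 7 for the transgene and 6 for peretinoin at week 20, 16 for the transgenic age comparison, 8 for the difference of peretinoin effects and 0 for that of transgene effects. The cause of these shifts was not tested.

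Leaving out 1 array at a time gave 9 to 13 calls for the transgene at week 20, 7 to 11 at week 48, 0 to 0 for tumour against transgenic liver, 7 to 15 for tumour against wild type, 0 to 3 and 1 to 4 for peretinoin at weeks 20 and 48, 1 to 2 and 6 to 10 for age in wild-type and transgenic mice, 0 to 0 for the difference of transgene effects and 1 to 4 for that of peretinoin effects. The 7 calls of week 48 came without wild-type replicate 1, 2 or 3 or transgenic replicate 5, the 7 in tumours without wild-type replicate 2 or 3 or tumour 1 or 4, and the 6 by age without transgenic replicate 5 of week 48. The peretinoin count reached 4 without peretinoin replicate 4 of week 48, as did the difference of effects, which also gave 4 without transgenic replicate 4 of week 20.

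The labels do not pair samples by replicate number. Correlations of same-numbered deviations ran from -0.08 to 0.432, and no comparison had all of them over 0.1. They came nearest for tumour against transgenic liver, where all 5 were above 0 (0.077 to 0.29) and 4 were over 0.1. The value of 0.432 was that of replicate 4 in transgenic against wild-type liver at week 48, and both of those arrays carried muscle transcripts. With a replicate block 12, 11, 0, 12, 2, 2, 4, 10, 0 and 3 genes were called, in the order transgene at weeks 20 and 48, tumour against transgenic and wild-type liver, peretinoin at weeks 20 and 48, age in wild-type and transgenic mice, and the differences of transgene and peretinoin effects.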

Other observations

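Cyp4a10, an omega-hydroxylase widely used as a readout of PPAR-alpha in mice, shares its probe set with Cyp4a31 and was not tested, so its signals belong to either gene. At week 48 the probe set gave 10499, 9111.5, 5510.4, 6529.9 and 1565.4 in tumours. It gave 26139, 20381, 15670, 18010 and 14971 in peretinoin livers, against 16459, 12763, 6672.1, 6754.5 and 1503.3 in transgenic livers on the basal diet and 16373, 23290, 17593 and 4168.2 in wild-type livers. The 5 peretinoin livers were high, with 1 basal liver inside their range, and the tumours lay under all of them.

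At week 20 it gave 17092, 14473, 19292, 9593.4 and 12388 in peretinoin livers, against 26463, 28126, 28608, 5672.8 and 7686.7 in transgenic livers and 24819, 24544, 5521.1, 24474 and 16423 in wild-type livers. Transgenic replicates 4 and 5 were the low ones here as in Cyp4a14, and wild-type replicate 3 was low in both probe sets.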
